A study of Homo sapiens with 4 samples.

Results

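The 45 genes described here detect nucleic acid inside the cell, pass on the interferon signal, or are switched on by it. They were listed by name and not by their values, out of 60675 annotated genes, and comprise 3 genes of cytosolic DNA sensing, 5 of RNA sensing, 5 interferon regulatory factors (IRFs), 4 interferon receptor chains, 5 kinases and STATs, and 23 interferon-stimulated effectors. Their RNA was measured by RNA-seq in LNCaP, an androgen-responsive human prostate cancer cell line. Cells were kept in hormone-depleted medium and all of them received 1 nM R1881, a synthetic androgen, for 72 h. The control group (n = 2) received the DMSO vehicle with the androgen, and the treated group (n = 2) received 50 µM CPI-455, an inhibitor of the KDM5 histone demethylases, with the androgen. No cells without androgen and no second line enter the comparison, so the values describe androgen-treated cells of 1 line. The study's methods call the libraries biological replicates, and with 2 per group every test rests on a small estimate of the spread.

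The vehicle libraries held 19623553 and 20690819 counted fragments, the CPI-455 libraries only 9522920 and 5401588, and the smallest level that 3 counts can show lay between 0.137 and 0.142 CPM in the controls and between 0.337 and 0.595 CPM in the treated libraries. CPM here and below are counts scaled to the library total after TMM, edgeR's normalization between libraries. MALAT1, a nuclear RNA, took 0.0884% to 0.114% of the counts with vehicle and 4.95% to 6.49% with CPI-455. The LNCaP and luminal prostate markers KLK3, KLK2, FOLH1, TMPRSS2, KRT8 and KRT18 had counts in every library. Of these, KLK3 (404 and 357 CPM with vehicle, 107 and 136 CPM with CPI-455), FOLH1 (log2 fold change -2.58) and KRT8 (-1.07) were called lower under the inhibitor, and KLK2 (0.56), TMPRSS2 (-0.66) and KRT18 (-0.43) were not called. The 10 immune and stromal markers summed to between 9.52 and 10.0 CPM in the controls and between 12.3 and 17.3 CPM in the treated libraries. Of these 10, 3 stayed below 3 counts in every library (CD3E, CD68 and DCN), while PTPRC, which marks leukocytes, was at 0 in 3 libraries and had 8 counts in the other one. COL1A1 was the 1 marker of this list called, at a log2 fold change of 1.00. The part of these markers in the results below was not tested. Of the inhibitor's targets, KDM5B was lower (log2 fold change -1.07), KDM5A stood at 0.77 and was not called, and KDM5C stood at 0.03. With a trend on exon GC content and length removed, KDM5A was called higher (1.24) and KDM5B, at -0.66, was not called. KDM5C then stood at 0.24.

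Cells detect DNA in the cytosol through cGAS and STING, and double-stranded RNA through RIG-I, MDA5 and TLR3. Both routes activate the kinase TBK1 and the factor IRF3, which turn on interferon genes. Secreted interferon binds receptors coupled to the kinases JAK1, JAK2 and TYK2, and these act through STAT proteins and IRF9 on a shared promoter element, the interferon-stimulated response element (ISRE), to raise a large set of effector genes such as the IFIT, OAS and IFITM families. KDM5 proteins remove methyl groups from lysine 4 of histone H3, a mark of active promoters, and in other cancers they have been linked to low STING levels.

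The ISRE is the element through which many interferon-stimulated genes respond, so the stretches that carry it are printed here for the called members that have one and for 2 members that were not called, IFI6 and BST2. The promoter sequences are RefSeq's, on GRCh38.p14, from 250 bases before to 50 bases after a gene's start, and 34 of the 45 members matched an entry. Each stretch is written 5′ to 3′ on the strand of its gene, and capitals mark the ISRE core GAAANNGAAA on either strand, with overlapping matches joined.
ISG15 (chr1:1013376-1013407, plus strand): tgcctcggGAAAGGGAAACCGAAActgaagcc
OAS3 (chr12:112938323-112938479, plus strand): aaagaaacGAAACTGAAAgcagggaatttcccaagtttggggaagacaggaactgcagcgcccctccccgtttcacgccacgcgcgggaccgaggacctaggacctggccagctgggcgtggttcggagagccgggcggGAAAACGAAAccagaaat
IFIT3 (chr10:89327833-89327892, plus strand): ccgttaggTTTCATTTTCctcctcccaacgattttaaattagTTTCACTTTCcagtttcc
IFIT5 (chr10:89414515-89414573, plus strand): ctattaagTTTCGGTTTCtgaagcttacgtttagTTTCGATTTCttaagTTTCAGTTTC
TLR3 (chr4:186069144-186069161, plus strand): agctttacTTTCACTTTC
IFI6 (chr1:27672268-27672356, minus strand): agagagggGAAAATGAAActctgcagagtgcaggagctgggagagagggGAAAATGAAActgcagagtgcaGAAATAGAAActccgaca
BST2 (chr19:17405737-17405768, minus strand): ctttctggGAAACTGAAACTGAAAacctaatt

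The core was found in 16 of the 34 matched members (47.1%) and in 4.38% of the 27305 genes with a promoter entry. The STAT dimer site TTCNNNGAA, again on either strand, was found in 9 of the 34 (26.5%) against 9.38% of all genes. The 2 motifs were searched separately, and their matches may overlap. The members with an ISRE core did not move in 1 direction under CPI-455. Of the 3 matched members called higher, 1 held the core (ISG15), as did 4 of the 7 called lower (OAS3, IFIT3, IFIT5 and TLR3) and 9 of the 21 not called. ISG15 and BST2 carry overlapping cores within 32 printed bases, and their RNA levels with CPI-455 stood 6.79-fold and 1.93-fold above vehicle. IFIT5 carries 3 cores that begin between 45 and 4 bases before its start, and its level fell. These matches are letters in a window and were read as nothing more.

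The comparison asks whether the inhibitor changed the RNA level of these genes in androgen-treated cells. It was made with edgeR's quasi-likelihood test across 17600 genes with Benjamini-Hochberg adjustment, and a gene was called at a false discovery rate (FDR) below 0.05 with a change of at least 2-fold, where the log2 fold change is CPI-455 over vehicle. Of the 45 members, 39 had enough counts to be tested. CPI-455 raised 5 of them (IRF3, IRF9, TYK2, ISG15 and IFITM2), or 12.8%, and lowered 8 (TLR3, TRIM25, IFNAR1, IFIT2, IFIT3, IFIT5, OAS3 and ADAR), or 20.5%. Over all genes tested, 21% were called higher and 21.3% lower, and over the protein-coding genes alone 15.6% were called higher and 24.4% lower. With these settings neither share of members was above that of all genes or of protein-coding genes. A further 8 members passed the FDR with a change under 2-fold, 2 higher (STAT2 and BST2) and 6 lower (TBK1, IRF1, IFNGR1, IFNGR2, JAK1 and SAMHD1), and 18 did not pass it. The median log2 fold change over the 39 members was -0.33 (interquartile range -1.14 to 0.71), with 23 below 0, against -0.21 over protein-coding genes and -0.04 over all genes. With library totals alone in place of TMM, the split of called members moved to 4 higher (10.3%) and 15 lower (38.5%). Among all genes the shares were then 17.8% and 25.9%, so there the share called lower was above that of all genes. That share was also above that of all genes without the filter on low counts (29.5% beside 13.6%) and with upper-quartile factors (20.5% beside 17.6%). The same held with a trend on exon GC content and length removed (23.1% beside 18.5%) and with the likelihood-ratio test (25.6% beside 22.6%). With the replicate number as a block the share was above too (23.1% beside 21.3%), also with that trend removed (23.1% beside 18.3%). So it was with glmTreat, whose null is a change of up to 2-fold (15.4% beside 13.4%), and in every fit with a library left out. It was below with DESeq2 (17.9% beside 18.7%) and with 10 counts in every library (17.9% beside 19.6%). After thinning to the shallowest library it was below too (18.8% beside 20%). It was slightly below with RLE factors (20.5% beside 20.8%) and with normalization without mitochondrial genes and MALAT1 (20.5% beside 21.4%). At an FDR below 0.01 it was slightly below as well (17.9% beside 18.3%). For these other settings only the shares of all genes are given, not those of protein-coding genes. Because these are bulk libraries, a lower level may mean less RNA per cell or fewer cells that express the gene, and the libraries cannot tell these apart.

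**Figure D1:**
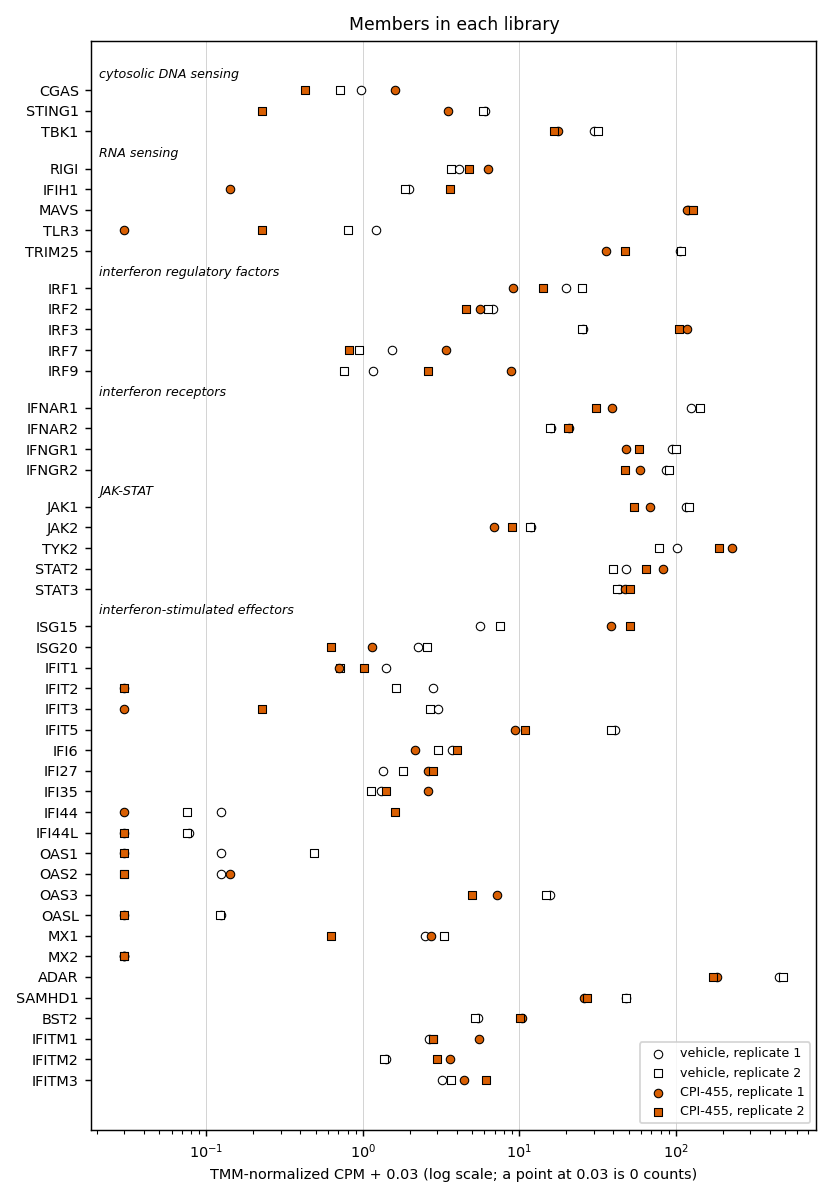
TMM-normalized CPM of each of the 45 members in the 4 libraries, on a log scale with 0.03 added, with open symbols for vehicle and filled symbols for CPI-455 (circles replicate 1, squares replicate 2). Both CPI-455 points lie to the right of both vehicle points for IRF3, IRF9, TYK2, ISG15 and IFITM2 and to the left for ADAR, IFNAR1, TRIM25, OAS3, TLR3, IFIT2, IFIT3 and IFIT5, while the CPI-455 replicates of STING1, IFIH1 and IRF9 are far apart.

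**Figure D2:**
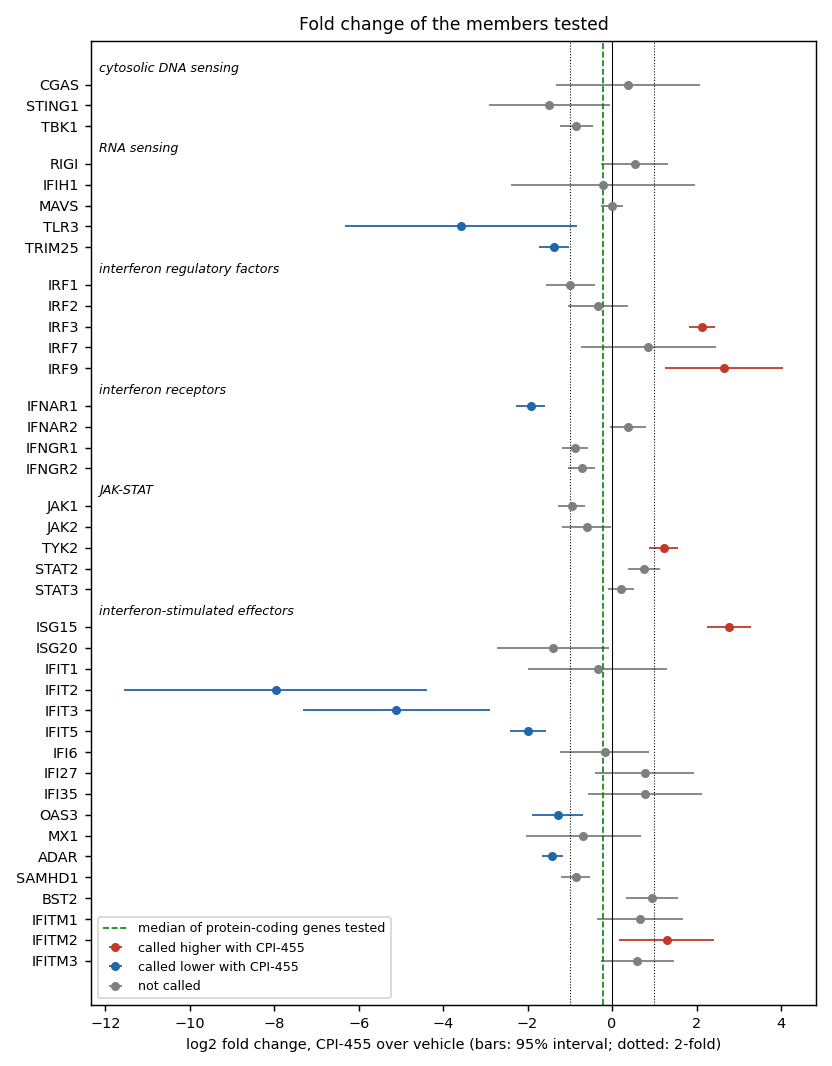
Log2 fold change, CPI-455 over vehicle, of the 39 members tested (points) with 95% intervals (bars), grouped by role; red points were called higher, blue points lower and grey points not called, the dotted lines mark 2-fold and the dashed line the median of protein-coding genes (-0.21). Called members lie on both sides of 0, and the fitted points of IFIT2, IFIT3 and TLR3 rest on 0 or 1 counts with CPI-455.

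In the cytosolic DNA sensing group, edgeR and DESeq2 called none of the 3 members, although STING1 and TBK1 were lower at an unadjusted p under 0.05, and the level of STING1 differed between the CPI-455 replicates. STING1, the adaptor that relays the signal of cGAS, was at 6.01 and 5.86 CPM with vehicle and at 3.49 and 0.198 CPM with CPI-455, which stand for 127, 128, 31 and 1 counts. Both treated libraries lay below both controls, but they also lay far from each other. The log2 fold change was -1.49 ± 0.64 (SE; FDR = 0.0668), and it was -4.87 (FDR = 2.86e-09) without CPI-455 replicate 1 but -0.81 (FDR = 0.0238), under 2-fold, without replicate 2. The 95% interval of the difference ran from -2.93 to -0.05, so these libraries set no limit near 2-fold on a decrease, while an increase lay outside it. STING1 was called lower in 7 of the other settings, with values between -1.58 and -2.08 on the log2 scale. CGAS, which encodes the DNA sensor itself, was barely measured. It had 20 and 15 counts with vehicle against 14 and 2 with CPI-455, and its log2 fold change of 0.38 (FDR = 0.68) turned to -1.04 without CPI-455 replicate 1. TBK1, the kinase downstream of STING and MAVS, was at 29.9 and 32.1 CPM with vehicle and at 17.8 and 16.7 CPM with CPI-455. The groups did not overlap, and its log2 fold change of -0.84 ± 0.17 (FDR = 0.00233) stayed short of 2-fold. With a trend on exon GC content and length removed, TBK1 stood at -0.39 (FDR = 0.0703) and no longer passed the FDR.

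Among the RNA sensing genes, CPI-455 lowered TRIM25 and TLR3, while the adaptor MAVS had a like level in both groups. TRIM25 (ENSG00000121060, chr17:56887909-56914038, minus strand), a ubiquitin ligase that acts on RIG-I, was at 106 and 108 CPM with vehicle and at 35.8 and 47.6 CPM with CPI-455. The 2 groups were well separated, with a log2 fold change of -1.38 ± 0.15 (FDR = 5.34e-05). TLR3 (ENSG00000164342, chr4:186069152-186088069, plus strand), the endosomal receptor for double-stranded RNA, had 25 and 17 counts with vehicle against 0 and 1 with CPI-455. Its vehicle level was 13.6 times that with CPI-455 (95% exact counting interval 2.32 to 551), at FDR = 0.0283. That call was lost with DESeq2 (adjusted p = 0.124) and after removal of a trend on the GC content and length of exons, below called the exon trend (FDR = 0.0536), at an FDR below 0.01, with glmTreat, whose null is a change of up to 2-fold (FDR = 0.0818), and also without vehicle replicate 2 (FDR = 0.249) or CPI-455 replicate 1 (FDR = 0.125). In CPI-455 replicate 1 TLR3 had no count, and without replicate 1 its log2 fold change was -2.28. Without CPI-455 replicate 2 the remaining treated library had no TLR3 count, and the fitted value was -7.10. MAVS, the mitochondrial adaptor of the RNA sensors, was at 120 and 127 CPM with vehicle and at 118 and 129 CPM with CPI-455. The control values lay between the treated ones, and the 95% interval of its log2 fold change, -0.26 to 0.26, keeps the difference well within 2-fold. RIGI, which encodes RIG-I, was at 4.07 and 3.66 CPM with vehicle and at 6.30 and 4.76 CPM with CPI-455. Its log2 fold change was 0.53 ± 0.35 (FDR = 0.214). With the exon trend removed it was 0.95 (FDR = 0.0396), which passed the FDR but stayed under 2-fold. IFIH1, which encodes MDA5, had 41 and 40 counts with vehicle against 1 and 18 with CPI-455. The treated replicates fell on opposite sides of the controls once scaled to depth (0.112 and 3.57 CPM against 1.94 and 1.83 CPM). Its log2 fold change of -0.21 therefore became 0.90 without CPI-455 replicate 1 and -4.02 without replicate 2.

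Among the sensing and signalling members, IRF9 and IRF3 rose the most. IRF3 (ENSG00000126456, chr19:49659569-49665875, minus strand), the factor activated by TBK1, was at 25.7 and 25.3 CPM with vehicle and at 119 and 105 CPM with CPI-455. Both treated libraries stood several-fold above both controls. Its level rose 4.39-fold (log2 fold change 2.13 ± 0.14, FDR = 2.12e-06). IRF3 shares 734 of its 3794 exon bases with BCL2L12 on the opposite strand, and fragments over both genes were not counted. IRF9 (ENSG00000213928, chr14:24161053-24166565, plus strand), the DNA-binding partner of the STATs, was at 1.14 and 0.733 CPM with vehicle and at 8.88 and 2.58 CPM with CPI-455. The groups did not overlap although the treated replicates differed widely, and the log2 fold change was 2.66 ± 0.62 (FDR = 0.00457). Without CPI-455 replicate 1 it was 1.44 (FDR = 0.0496), and without replicate 2 it was 3.20. IRF9 shares 1838 of its 3794 exon bases with a gene known by its identifier only (ENSG00000259529) on the same strand. That gene had 28 and 23 counts with vehicle against 24 and 7 with CPI-455, so IRF9 was measured over its remaining exon bases.

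IRF1, itself induced by interferon, was at 19.8 and 25.1 CPM with vehicle and at 9.11 and 14.1 CPM with CPI-455. A log2 fold change of -0.99 ± 0.26 (FDR = 0.00783) lay at the edge of the 2-fold threshold and passed it in 4 of the other settings and replicate omissions. IRF2, a repressor that competes with IRF1, was at 6.72 and 6.27 CPM with vehicle and at 5.62 and 4.56 CPM with CPI-455, and its log2 fold change was -0.33 (FDR = 0.378). IRF7, the factor that amplifies interferon production, had 32 and 20 counts with vehicle against 30 and 4 with CPI-455. Its 2 treated libraries were on either side of the controls, and the log2 fold change of 0.86 (FDR = 0.319) became -0.63 without CPI-455 replicate 1 and 1.43 without replicate 2. The sum over the 5 IRFs was 54.9 and 58.4 CPM with vehicle and 146 and 127 CPM with CPI-455, where IRF3 made up most of it.

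Of the 4 interferon receptor chains, CPI-455 lowered IFNAR1. IFNAR1 (ENSG00000142166, chr21:33324477-33359862, plus strand), a chain of the receptor for type I interferon, was at 126 and 143 CPM with vehicle and at 39.0 and 30.7 CPM with CPI-455. Each treated library lay far below each control, and the log2 fold change was -1.93 ± 0.15 (FDR = 6.62e-06). IFNAR2, the partner chain, was at 16.0 and 15.8 CPM with vehicle and at 20.8 and 20.4 CPM with CPI-455, with a log2 fold change of 0.38 ± 0.19 (FDR = 0.112). Its interval, -0.05 to 0.80, lay within 2-fold, and 1803 of its 4614 exon bases are shared with a non-coding gene on the opposite strand. With the exon trend removed, the log2 fold change of IFNAR2 was 0.66 (FDR = 0.0106), under 2-fold. The 2 chains of the receptor for interferon-gamma shared a direction. IFNGR1 was at 95.2 and 99.8 CPM with vehicle against 48.0 and 58.5 CPM, and IFNGR2 was at 87.1 and 90.1 CPM against 59.4 and 47.2 CPM. Neither was called, at log2 fold changes of -0.88 (FDR = 0.000456) and -0.72 (FDR = 0.00186). The summed level of the 4 chains was 324 and 349 CPM with vehicle and 167 and 157 CPM with CPI-455.

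The kinases that sit on these receptors differed among themselves. TYK2 (ENSG00000105397, chr19:10350529-10380676, minus strand), the kinase bound to IFNAR1, was at 102 and 78.3 CPM with vehicle and at 229 and 189 CPM with CPI-455. The treated libraries were both above the controls, and TYK2 rose 2.33-fold (log2 fold change 1.22 ± 0.16, FDR = 0.000119). When the null was a change of up to 2-fold, TYK2 was not called (FDR = 0.0927). JAK1, which pairs with TYK2 on the type I receptor, was at 116 and 122 CPM with vehicle and at 68.7 and 53.7 CPM with CPI-455. Its groups were apart, and its log2 fold change of -0.95 ± 0.14 (FDR = 0.000335) fell just short of 2-fold. JAK2, which serves the interferon-gamma receptor, was at 11.9 and 11.7 CPM with vehicle and at 6.86 and 8.92 CPM with CPI-455 (log2 fold change -0.60, FDR = 0.0669). STAT2, the STAT particular to type I and III interferon, was at 48.2 and 39.8 CPM with vehicle and at 82.9 and 64.4 CPM with CPI-455. It was higher in both treated libraries, at a log2 fold change of 0.75 ± 0.17 (FDR = 0.00338), and passed 2-fold only after the exon trend was removed (1.02). STAT3, which also serves interleukin-6 signalling, was at 43.3 and 42.3 CPM with vehicle and at 47.7 and 51.4 CPM with CPI-455. The interval of its log2 fold change, -0.11 to 0.52, lay within 2-fold. With the exon trend removed, the log2 fold change of STAT3 was 0.57 (FDR = 0.00366), under 2-fold.

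The 23 effectors moved both ways. Of the 17 tested, 2 or 11.8% rose (ISG15 and IFITM2) and 5 or 29.4% fell (ADAR, OAS3, IFIT2, IFIT3 and IFIT5). Among protein-coding genes these shares were 15.6% and 24.4%. The median log2 fold change of the 17 was -0.34. ISG15 (ENSG00000187608, chr1:1001138-1014541, plus strand) encodes a ubiquitin-like protein that is attached to other proteins. It was at 5.59 and 7.51 CPM with vehicle and at 38.3 and 51.4 CPM with CPI-455. Every treated value exceeded every control several-fold, and ISG15 rose 6.79-fold (log2 fold change 2.76 ± 0.23, FDR = 9.25e-06). ISG15 has the second highest exon GC content of the tested members (63.8%) and a short exon length of 942 bases, and after removal of the exon trend its log2 fold change was 1.67 (FDR = 0.000266).

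The IFIT genes encode proteins that bind foreign RNA. Of the 4 listed, 3 were called lower, where 21.3% of all genes and 24.4% of protein-coding genes were. IFIT5 (ENSG00000152778, chr10:89414586-89421001, plus strand) was at 41.0 and 38.5 CPM with vehicle and at 9.33 and 10.9 CPM with CPI-455. The groups were far apart at a log2 fold change of -1.99 ± 0.19 (FDR = 1.84e-05). IFIT3 (ENSG00000119917, chr10:89327894-89340971, plus strand) had 63 and 58 counts with vehicle against 0 and 1 with CPI-455. Its vehicle level was 39.2 times that with CPI-455, with an exact counting interval of 6.91 to 1563 (FDR = 0.00153). IFIT2 (ENSG00000119922, chr10:89301955-89309276, plus strand) had 59 and 35 counts with vehicle and none in either treated library. Set against a floor of 3 counts per library, its level was at least 4.72-fold lower with CPI-455 (FDR = 0.00228). IFIT1, the fourth gene of this cluster on chromosome 10, had 29 and 15 counts with vehicle against 6 and 5 with CPI-455. Scaled to depth these were 1.37 and 0.687 CPM against 0.675 and 0.991 CPM, which overlap, and the 95% interval of its log2 fold change, with an upper end of 1.31, passed 2-fold on both sides.

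ADAR (ENSG00000160710, chr1:154582062-154627999, minus strand), which edits double-stranded RNA and keeps self RNA from being sensed, was the member with most counts. It was at 461 and 488 CPM with vehicle and at 183 and 173 CPM with CPI-455. The spread within each group was small beside the gap between them, and the log2 fold change was -1.42 ± 0.11 (FDR = 5.8e-06). OAS3 (ENSG00000111331, chr12:112938352-112973249, plus strand) makes the second messenger that activates RNase L. Its level was 15.6 and 14.9 CPM with vehicle and 7.20 and 4.96 CPM with CPI-455. Both treated libraries lay well below both controls, with a log2 fold change of -1.29 ± 0.26 (FDR = 0.00221), a call that was lost under the same null of up to 2-fold (FDR = 0.149). SAMHD1, which breaks down nucleotides needed by viruses, was at 48.1 and 47.9 CPM with vehicle and at 25.8 and 27.2 CPM with CPI-455 (log2 fold change -0.86, FDR = 0.000808) and was not called.

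The membrane effectors were weakly expressed, and their mean levels were above the controls. IFITM2 (ENSG00000185201, chr11:307631-315272, plus strand), which blocks virus entry at endosomes, was at 1.37 and 1.33 CPM with vehicle and at 3.60 and 2.97 CPM with CPI-455, from 29, 29, 32 and 15 counts. Its groups did not overlap, but its call was near the threshold, with a log2 fold change of 1.29 ± 0.50 (FDR = 0.0475). It was lost with DESeq2 (adjusted p = 0.14), with library totals alone (FDR = 0.0824), without the filter on low counts (FDR = 0.116), after removal of the exon trend (0.71, FDR = 0.253), under each stricter threshold, and without vehicle replicate 1 (FDR = 0.368), vehicle replicate 2 (FDR = 0.4) or CPI-455 replicate 1 (FDR = 0.0873). IFITM2 shares 351 of its 1543 exon bases with IFITM1, and the IFITM genes are near-identical in parts, so the counts of each are uncertain. IFITM1 was at 2.60 and 2.79 CPM with vehicle against 5.51 and 2.78 CPM, and IFITM3 at 3.17 and 3.66 CPM against 4.39 and 6.15 CPM. The groups overlapped for IFITM1 alone. Their log2 fold changes of 0.66 (FDR = 0.227) and 0.60 (FDR = 0.197) turned below 0 (-0.21 and -0.14) when the exon trend was removed. BST2, which tethers budding virus to the cell, was at 5.40 and 5.22 CPM with vehicle and at 10.3 and 10.1 CPM with CPI-455. Replicates lay close together and the groups apart, but the log2 fold change of 0.95 ± 0.28 (FDR = 0.014) was under 2-fold and became 0.05 (FDR = 0.887) once that trend was removed.

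The other effectors with counts were not called. MX1, a GTPase that blocks viral replication, had 52 and 72 counts with vehicle against 24 and 3 with CPI-455, which gave 2.46 and 3.30 CPM against 2.70 and 0.595 CPM. The first treated library lay between the controls and the other below them, so the log2 fold change of -0.68 (FDR = 0.354) became -2.28 (FDR = 0.0047) without CPI-455 replicate 1 and -0.14 (FDR = 0.785) without replicate 2. ISG20, an exonuclease, was at 2.23 and 2.56 CPM with vehicle and at 1.12 and 0.595 CPM with CPI-455 (log2 fold change -1.40, FDR = 0.0641), and was called lower without CPI-455 replicate 1 (-2.01, FDR = 0.0187) but not without replicate 2 (-1.13, FDR = 0.062). IFI6, which has been linked to resistance to apoptosis, was at 3.69 and 2.98 CPM with vehicle and at 2.14 and 3.97 CPM with CPI-455. The treated values lay on either side of the controls, and the log2 fold change of -0.18 became -1.29 (FDR = 0.0362) when the exon trend was removed. IFI27, a mitochondrial protein, was at 1.33 and 1.79 CPM with vehicle against 2.59 and 2.78 CPM, and IFI35, a partner of NMI, at 1.28 and 1.10 CPM against 2.59 and 1.39 CPM. Neither pair of groups overlapped, but with counts between 7 and 39 the log2 fold changes of 0.78 and 0.78 had FDR of 0.22 and 0.284.

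Finally, 6 members had too few counts to be tested. MX2 had none in any library. OAS1 had 2 and 10 counts with vehicle and none with CPI-455, OASL had 2 and 2 against none, IFI44L had 1 and 1 against none, and OAS2 had 2, 0, 1 and 0 counts across the 4 libraries. IFI44 had 2 and 1 counts with vehicle against 0 and 8 with CPI-455. The vehicle levels of OAS1 (0.276 CPM), OASL (0.0931 CPM) and IFI44L (0.0466 CPM) are below 0.466 CPM, the mean level that 3 counts in each treated library would give, so a decrease of these genes was not detectable at this depth. These transcripts are among the textbook targets of type I interferon, and in the vehicle group they were at or near the detection limit.

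**Figure D3:**
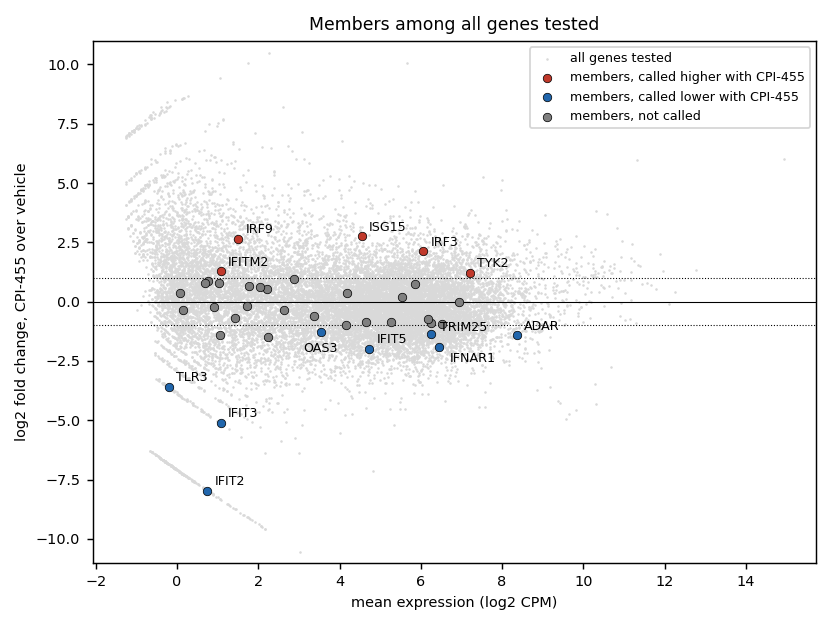
Log2 fold change, CPI-455 over vehicle, against mean log2 CPM for the 17600 genes tested (light grey) and the 39 members (coloured by call), with dotted lines at 2-fold. The called members lie inside the cloud of other genes, with ISG15 (2.76) and IRF9 (2.66) the highest, and the diagonal line of points that holds IFIT2 is made of genes with no count in either CPI-455 library.

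Levels were compared between genes per length of exon, as TMM-normalized CPM divided by exon length in kilobases (FPKM, mean ± SD, n = 2). With vehicle, ADAR was the highest member (56.8 ± 2.33 FPKM), followed by IFNGR1 (37.9 ± 1.27 FPKM), IFNGR2 (29.9 ± 0.717 FPKM) and IFNAR1 (21.3 ± 1.91 FPKM). The gaps between these 4 exceeded the sum of their SDs, whereas the gap from IFNAR1 to JAK1 (18.9 ± 0.685 FPKM) did not. With CPI-455, ISG15 headed the order (47.6 ± 9.77 FPKM), ahead of TYK2 (30.9 ± 4.18 FPKM), IRF3 (29.4 ± 2.60 FPKM) and ADAR (21.3 ± 0.839 FPKM). TYK2 and IRF3 did not differ beyond their spread, nor did ADAR and IFNGR1 (20.7 ± 2.88 FPKM), which came next. ISG15 moved from the 12th place among the 45 members to the first, IRF3 from the 13th to the 3rd and TYK2 from the 7th to the 2nd, while IFNAR1 moved from the 4th to the 13th and IFIT5 from the 9th to the 20th. These FPKM were not corrected for the exon trend. With that trend removed, the log2 fold change of ISG15 was 1.67 in place of 2.76. The DNA sensor gene CGAS and the adaptor gene STING1 were low in both groups. CGAS was at 0.197 ± 0.0443 FPKM with vehicle and 0.237 ± 0.200 FPKM with CPI-455, and STING1 at 1.54 ± 0.0279 and 0.478 ± 0.604 FPKM.

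The direction of the called members moved with the base composition and length of their exons. The 5 members called higher had a median exon GC content of 59.5% (range 54.2% to 63.8%), the 8 called lower 43.7% (37.4% to 53.0%) and the 26 not called 51.6%. The ranges of the 2 called groups did not overlap. Over all genes tested the medians ran the same way, at 51.6% for those called higher, 46.1% for those called lower and 48.3% for the rest. Median exon length was 3794 bases for members called higher, 6483.5 for those called lower and 4440.5 for those not called. The length ranges of the called groups overlapped. Over all genes tested the median lengths were 2978.5 bases for those called higher and 5285 for those called lower. With the exon trend removed from each library, 5 members were called higher (12.8%, beside 20.5% of all genes) and 9 lower (23.1%, beside 18.5%). IRF3 (2.03), IRF9 (2.64), TYK2 (1.26) and ISG15 (1.67) kept their calls, and so did TRIM25 (-1.11), IFNAR1 (-1.45), IFIT5 (-1.59), ADAR (-1.08) and OAS3 (-1.07), as log2 fold changes. IFIT2 and IFIT3 also kept theirs, while IFITM2 and TLR3 lost theirs. STAT2 (1.02) was gained as higher, and STING1 (-1.58) and IFI6 (-1.29) as lower.

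**Figure D4:**
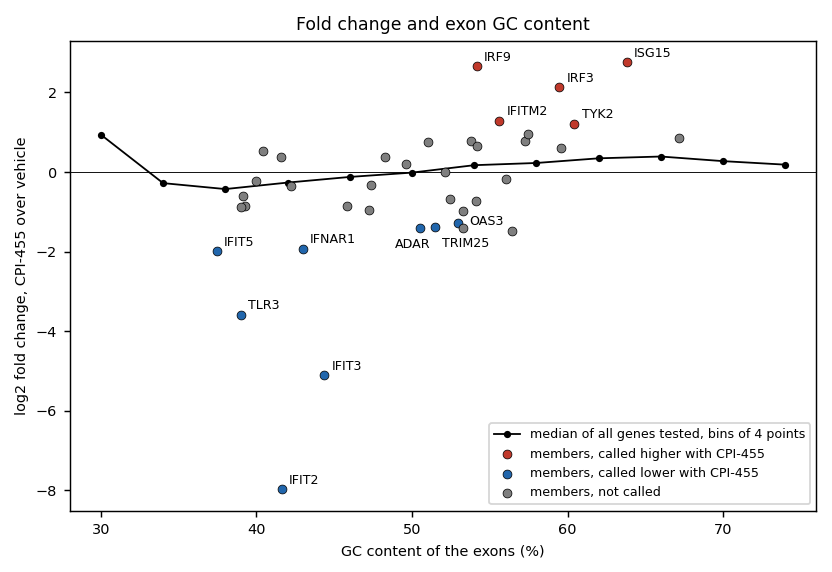
Log2 fold change, CPI-455 over vehicle, of the 39 members tested (coloured by call) against the GC content of their exons in percent, with the median of all genes tested in bins of 4 percentage points (black line, bins of at least 20 genes). Members called higher lie between 54.2% and 63.8% GC and members called lower between 37.4% and 53.0%.

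The calls of 9 of the 13 members (ADAR, IFIT2, IFIT3, IFIT5, IFNAR1, IRF3, IRF9, ISG15 and TRIM25) held in every other setting and replicate omission in which the gene was tested. IFIT2 and IFIT3 could not be tested with a minimum of 10 counts in every library or after thinning to the shallowest library. Without CPI-455 replicate 1 the log2 fold change of IFIT3 was -3.80, and without replicate 2 the remaining treated library had no IFIT3 count. The calls of TLR3, IFITM2, OAS3 and TYK2 were lost in at least 1 setting, as given with each gene.

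**Figure D5:**
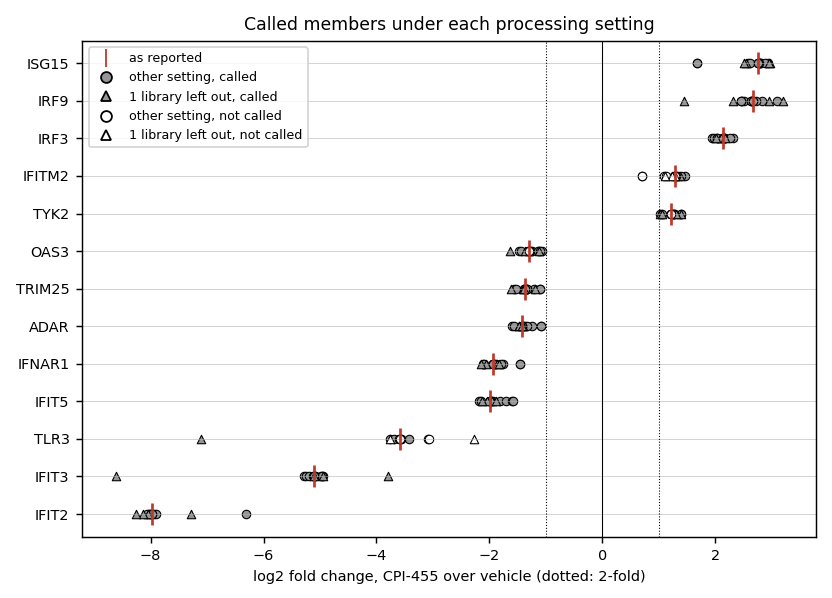
Log2 fold change, CPI-455 over vehicle, of the 13 called members as reported (red bars), under each other processing setting (circles) and with 1 library left out (triangles), with filled symbols for values that were called and open symbols for those that were not. IFITM2 and TLR3 have the most open symbols, and the wide ranges of TLR3, IFIT3 and IFIT2 come with 0 or 1 counts in the CPI-455 libraries.

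The same routes were followed in 84 further genes of the pathway, listed with earlier results known, of which 57 could be tested. CPI-455 raised 4 of them (7.02%) and lowered 13 (22.8%), beside 15.6% and 24.4% of protein-coding genes and 21% and 21.3% of all genes. The median log2 fold change of the 57 was -0.18. For the other settings the shares of all genes are given. With upper-quartile factors 12.3% were called in each direction, beside 24.4% of all genes called higher and 17.6% lower. With the exon trend removed 14% were called higher and 17.5% lower, beside 20.5% and 18.5% of all genes. Without CPI-455 replicate 1, 6.25% were called higher and 32.8% lower, beside 19.6% and 23.9% of all genes, and without replicate 2 the shares were 12.3% and 24.6%, beside 21.2% and 23.4%. None of the 7 interferon genes listed (IFNB1, IFNE, IFNK, IFNG, IFNL1, IFNL2 and IFNL3) had over 2 counts in any library, and all 7 were at 0 in both CPI-455 libraries. Their counts were too low for a test, which leaves the level of interferon RNA unmeasured.

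Of the 20 genes of sensing and signal relay, 16 were tested, 1 rose (6.25%) and 6 fell (37.5%), beside 15.6% and 24.4% of protein-coding genes. MYD88, the adaptor of most Toll-like receptors, had 83 and 58 counts with vehicle against 1 and 0 with CPI-455. Its vehicle level was 45.7 times that with CPI-455 (exact counting interval 8.08 to 1819, FDR = 0.000757). Among 10 tested of 11 other receptors, kinases and STATs, 3 rose (30%) and 2 fell (20%), beside those same shares of protein-coding genes. STAT6, which carries interleukin-4 signals, was at 21.9 and 20.5 CPM with vehicle and at 93.6 and 81.5 CPM with CPI-455 (log2 fold change 2.05 ± 0.15, FDR = 3.7e-06). JAK3, a kinase of lymphocyte cytokine receptors, rose by 1.99 on the log2 scale (FDR = 0.00121) and STAT4, which serves interleukin-12, by 1.33 (FDR = 0.0389). IL6ST, the shared chain of the interleukin-6 family receptors, was at 106 and 107 CPM with vehicle and at 16.3 and 20.2 CPM with CPI-455 (log2 fold change -2.56 ± 0.15, FDR = 1.77e-06). IRF8, a factor best known from myeloid cells, was at 14.7 and 12.3 CPM against 2.47 and 2.18 CPM (-2.51, FDR = 9.65e-05). For each of these genes the 2 groups did not overlap.

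The feedback regulators and the remaining interferon-stimulated genes held no gene called higher in the edgeR fit reported or by DESeq2. In the edgeR fit 15.6% of protein-coding genes were called higher. In each list 1 gene was higher at an unadjusted p under 0.05. PTPN2 passed the FDR with a change under 2-fold (0.84, FDR = 0.00157), and UBA7 missed it (1.43, FDR = 0.0531). With the exon trend removed both were called higher (1.38, FDR = 1.75e-05 and 1.35, FDR = 0.0401), as they were with upper-quartile factors (1.02 and 1.60). PTPN2 was also called with the block added to that trend (1.37). UBA7 was also called with 10 counts in every library (1.49), the likelihood-ratio test (1.39), no filter (1.27) and thinning (1.78). It was not called with library totals (1.24) or the replicate block (1.14). UBA7 stood at -0.098 without CPI-455 replicate 1 and at 2.02 without replicate 2. Of 7 feedback regulators tested, PIAS4 (-1.10) and NLRX1 (-1.09), inhibitors of STAT and MAVS signalling, fell, or 28.6% beside 24.4% of protein-coding genes. Of 37 other interferon-stimulated genes, 24 were tested, and 3 of these (12.5%) fell, beside that same 24.4%. They were PARP9 (log2 fold change -1.52, FDR = 0.000877), DTX3L (-1.34, FDR = 0.00045), which encodes the ligase that pairs with PARP9, and TDRD7 (-1.12, FDR = 0.000632), which limits autophagy. The other 21 were not called.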

How the data were processed

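RNA-seq of 4 LNCaP libraries was used, with groups and replicate numbers taken from the labels. The authors trimmed the reads with Trim Galore, mapped them with STAR (GRCh38) and summed fragments over the exons of each Ensembl release 83 gene with featureCounts v1.5.0-p1. What they deposited are raw counts, not normalized. Per the file headers the counting ignored strand and left out fragments that matched several genes, so overlapping genes and near-identical copies are measured less surely. How the RNA was selected and whether the libraries were stranded is not given in the sources used here, and the labels and methods give different DMSO concentrations.

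Symbols were matched for 56558 of 60675 genes. The test was edgeR 4.0.16 in R 4.3.3 (TMM factors of 1.08 and 1.06 for the controls and 0.936 for both treated libraries; filterByExpr with a minimum count of 10; glmQLFit and glmQLFTest without covariates), with Benjamini-Hochberg adjustment over all 17600 genes tested, a call at an FDR below 0.05 and at least 2-fold, and the log2 fold change given as CPI-455 over vehicle. The SE was taken from the fold change and its F statistic, and 95% intervals from the fit's degrees of freedom. Exact counting intervals cover counting error only. The 2 replicates of a group differed by more than sampling noise (chi-square per degree of freedom 4.19 with vehicle and 6.90 with CPI-455) and were counted separately. Promoters were RefSeq's on GRCh38.p14. Tables were made in Python 3.11.15. The script was tested on simulated data.

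Alternatives were RLE and upper-quartile factors, library totals alone, normalization without mitochondrial genes and MALAT1, no filter, 10 counts in every library, DESeq2 1.42.0, the likelihood-ratio test, thinning, the replicate number as a block, a smooth trend on the GC content and length of exons removed with mgcv 1.9.3 with and without the block, an FDR below 0.01, glmTreat, and leaving out each library. All 45 members are named. Of the further genes, the 3 largest called changes in each direction and every list with 5 or fewer called were named. Some prostate marker genes are not reported here. The members and lists were chosen with earlier results of these data known. The study's other experiments and its other cell lines were not analysed here.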

Additional observations from a re-analysis of the deposited data

How the results depend on the processing

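Among the 39 members tested, 474 of 528 values under settings that kept all libraries had the direction and call reported, 15 lost the call, 24 gained it and 15 changed sign, and of 154 values with a library left out these numbers were 133, 5, 10 and 6. Members called higher numbered 3 with glmTreat against 2-fold (7.69%, beside 13.9% of all genes), in place of 5 (12.8%, beside 21%). Members called lower numbered 15 with library totals (38.5%, beside 25.9% of all genes), 13 without the filter (29.5%, beside 13.6%) and 5 with 10 counts in every library (17.9%, beside 19.6%), in place of 8 (20.5%, beside 21.3%). Their median log2 fold change of -0.33 became -0.16 with upper-quartile factors, -0.52 with library totals, -0.49 without the filter, -0.054 with 10 counts and -0.18 with the exon trend removed, and ran from -0.62 to -0.074 with a library left out. The median of all genes itself moved by 0.17 with upper-quartile factors, -0.19 with library totals, -0.37 without the filter and -0.15 without CPI-455 replicate 1.

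Companion genes called higher numbered 7 with upper-quartile factors (12.3%, beside 24.4% of all genes) and 2 with library totals (3.51%, beside 17.8%). They numbered 8 with the exon trend removed (14%, beside 20.5%), 7 with the block added (12.3%, beside 19.1%) and 2 with glmTreat (3.51%, beside 13.9%). As reported they numbered 4 (7.02%, beside 21%), and the number changed in some fits with a library left out. Those called lower numbered 7 with upper-quartile factors, 20 without the filter, 8 after thinning and 6 with glmTreat, in place of 13, and 12 to 21 with a library left out. With glmTreat, 2455 of all genes were called higher and 2350 lower, in place of 3698 and 3756.

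The sign changed for MAVS (0.018 with RLE factors, 0.17 with upper-quartile factors, 0.042 with 10 counts, 0.018 with DESeq2, 0.16 after thinning, 0.23 with the exon trend removed, 0.23 with the block added, and between -0.11 and 0.044 with a library left out), IFIH1 (0.093 after thinning, 0.20 with the exon trend removed, -4.02 to 0.90 with a library left out), IFITM1 (-0.21 and -0.26 with the exon trend removed, without and with the block), IFITM3 (-0.14 and -0.13 likewise) and IFIT1 (0.065 and 0.12 likewise). With a library left out it also changed for IFI6 (-0.68 to 0.23), CGAS (-1.04 to 0.90) and IRF7 (-0.63 to 1.43), in each case without CPI-455 replicate 1. No member whose sign changed was called as reported, and the cause was not tested.

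Deviations of same-numbered replicates from their group means correlated at 0.04, and with 2 pairs the numbers do not pair the samples. The replicate block gave 4 members higher (10.3%, beside 19.4% of all genes) and 9 lower (23.1%, beside 21.3%). With it, IFITM2 was lost (FDR = 0.125) and STING1 gained (-1.82, FDR = 0.00188). Members with few counts in the treated libraries, such as TLR3, IFIT2 and IFIT3, are limited by depth. A fit with a library left out assumes that the lone library varies like the other group.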
